A study of Homo sapiens with 18 samples.

Results

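The genes described are 9 that stratified squamous epithelium uses late in differentiation: the small proline-rich proteins SPRR1A, SPRR1B, SPRR2A, SPRR2D and SPRR3, involucrin (IVL), transglutaminase 1 (TGM1) and the calmodulin-like proteins CALML3 and CALML5. They were taken by name, and each of the 9 had a row among the 16575 genes of the deposited table. All 9 reached, as 13022 genes did, at least 5 CPM (reads of a gene scaled to a common library total) in 1 library or more, although TGM1 did so only in RT-112 WK and in the library labelled CAL-29 KC, and CALML5 only in HT-1376 WK. CAGE-seq, in which the capped 5′ ends of RNA are sequenced, was performed on 6 variants each of CAL-29, HT-1376 and RT-112, lines of bladder carcinoma, made by consecutive stable lentiviral transductions. The first transduction carried a blank control (K) or WWOX (W) and was selected with puromycin. The second, selected with G418, carried a blank control (K), AP-2α (A) or AP-2γ (C). The double control was thus KK, the single overexpressions KA, KC and WK, and the combined ones WA and WC, and control cells had been through both viruses and both antibiotics as well. WWOX is a WW domain oxidoreductase studied as a tumor suppressor, and AP-2α and AP-2γ are transcription factors encoded by TFAP2A and TFAP2C. Each variant had 1 library in each line, 18 in all. By the sample records the W variants of a line come from cells given WWOX before the second transduction, and nothing says that they are separate transductions, so p-values measure the spread between these libraries. RT-112 was grown in RPMI-1640 and the other lines in DMEM.

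The cornified envelope is the protein shell that replaces the plasma membrane of a dying squamous cell. Involucrin is laid down first as its scaffold, the flexible small proline-rich proteins bridge other components, and transglutaminases join them by isopeptide bonds. CALML5 and CALML3 bind calcium in differentiating keratinocytes, and CALML5 is known to bind transglutaminase 3. Normal urothelium is lined by umbrella cells with uroplakins and makes no cornified envelope, while squamous differentiation is a known feature of part of bladder carcinomas.

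The libraries held 13357102 to 17958572 reads on genes, so that 1 read was worth 0.0526 to 0.0709 CPM. A gene without reads could have up to 0.158 to 0.213 CPM (3 reads, counting error only). The library labelled CAL-29 KC correlated with the HT-1376 libraries at 0.906 to 0.968 over log2 levels and with the other CAL-29 libraries at 0.720 to 0.774. Other pairs of libraries of the same line correlated at 0.874 to 0.991. That library is therefore given apart, and fits within or between lines leave it out. Native WWOX start sites gave 18.5 to 22.3 CPM in the W variants and 23.5 to 26.0 CPM in the K variants of RT-112, and 18.6 to 23.1 and 16.95 to 24.7 CPM in HT-1376. In CAL-29 they gave 62.4 to 155 CPM in W and 51.3 to 63.7 CPM in K variants. Transcripts made from the virus can begin elsewhere, so these levels do not check the labels. Each of the 18 libraries held all 6 epithelial markers listed, such as EPCAM and KRT18, and at least 5 of 10 urothelial ones. TFAP2C reached 143 to 339 CPM in the WC variants against 56.2 to 93.1 CPM in WK, and was also at 180 CPM in RT-112 WA. In HT-1376, KK (158 CPM) and KA (172 CPM) were about as high as WC (163 CPM). TFAP2A was higher in KA than in KK in each line, by 49.9 against 35.4 CPM in CAL-29, 101 against 69.0 CPM in HT-1376 and 46.8 against 18.01 CPM in RT-112. With WWOX, WA had 69.9 CPM against 76.9 in WK for HT-1376, so no rise was seen there, and 25.3 against 20.3 for RT-112 and 86.7 against 61.7 for CAL-29.

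On chromosome 1, 6 of the genes lie within 149 kb of each other (GENCODE 44 on GRCh38). IVL (chr1:152908546-152911886), SPRR1A (chr1:152984081-152985814), SPRR3 (chr1:153001747-153003856) and SPRR1B (chr1:153031203-153032900) are on the plus strand. SPRR2D (chr1:153039732-153041931) and SPRR2A (chr1:153056120-153057512) are on the minus strand. CALML5 (chr10:5498697-5499570, minus) and CALML3 (chr10:5524961-5526771, plus) lie within 28.1 kb, and TGM1 is at chr14:24249114-24264432 on the minus strand. All are protein coding. CAGE-seq reads begin at the promoter, so the 250 bases before the annotated start were read from RefSeq (GRCh38.p14) for the 7 genes matched there. SPRR2D and TGM1 were not matched. The 5 shown are 4 genes that rose with WWOX in HT-1376 and IVL, which did not. Capitals mark TGANTCA, the core that AP-1 factors bind, and TATAAA, the TATA box, all found in the reading direction of the gene. The windows are chr1:152983831-152984080 (plus), chr1:153030953-153031202 (plus), chr1:153057513-153057762 (minus), chr1:152908296-152908545 (plus) and chr10:5524711-5524960 (plus).
SPRR1A: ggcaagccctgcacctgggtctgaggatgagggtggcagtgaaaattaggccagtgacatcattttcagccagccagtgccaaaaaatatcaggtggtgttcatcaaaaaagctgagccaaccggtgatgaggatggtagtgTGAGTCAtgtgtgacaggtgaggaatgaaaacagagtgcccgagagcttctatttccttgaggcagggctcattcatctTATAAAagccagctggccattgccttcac
SPRR1B: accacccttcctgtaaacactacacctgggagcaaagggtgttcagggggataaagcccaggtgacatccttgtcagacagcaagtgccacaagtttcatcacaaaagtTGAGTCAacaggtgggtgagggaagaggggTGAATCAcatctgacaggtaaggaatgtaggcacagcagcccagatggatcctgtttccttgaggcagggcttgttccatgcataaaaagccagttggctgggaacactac
SPRR2A: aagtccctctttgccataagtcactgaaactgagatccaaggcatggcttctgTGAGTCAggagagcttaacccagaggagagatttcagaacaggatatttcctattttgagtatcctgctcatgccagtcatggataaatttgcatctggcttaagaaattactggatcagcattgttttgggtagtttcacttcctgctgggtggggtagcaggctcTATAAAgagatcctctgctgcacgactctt
IVL: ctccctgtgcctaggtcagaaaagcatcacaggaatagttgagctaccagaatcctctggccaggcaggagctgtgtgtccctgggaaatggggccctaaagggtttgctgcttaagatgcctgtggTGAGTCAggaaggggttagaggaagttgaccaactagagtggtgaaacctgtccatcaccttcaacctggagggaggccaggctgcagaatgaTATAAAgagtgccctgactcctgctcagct
CALML3: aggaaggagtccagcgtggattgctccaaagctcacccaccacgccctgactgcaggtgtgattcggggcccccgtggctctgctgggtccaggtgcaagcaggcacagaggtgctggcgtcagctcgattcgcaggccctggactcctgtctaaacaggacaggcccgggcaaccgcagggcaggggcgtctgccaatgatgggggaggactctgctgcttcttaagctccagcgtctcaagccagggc

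All motifs were searched on both strands, and none of the matches overlapped. The core TGANTCA was found in 5 of the 7 windows, and 6.57% of 35116 promoters of the same length held it. It began at position -108 in SPRR1A, -197 in SPRR2A, -123 in IVL and -170 in SPRR3, counted from -1 at the base before the start, and at -141 and -111 in SPRR1B. TATAAA was found in 4 of the 7, at -30 in IVL and SPRR2A and at -29 in SPRR1A and SPRR3, against 10.7% of promoters. The palindrome GCCNNNGGC, which AP-2 factors bind, was in 0 of the 7 windows and in 19.8% of promoters. CALML3 and CALML5 held none of the 3. These are matches of letters, and no match says nothing about a factor.

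**Figure D1:**
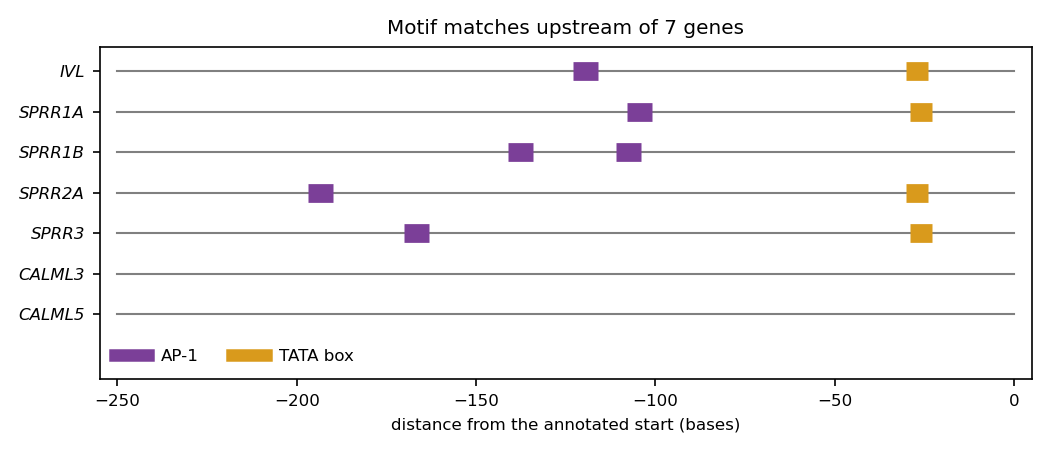
Positions of the AP-1 core (TGANTCA) and the TATA box (TATAAA) in the 250 bases before the annotated start of 7 genes; the x axis is the distance from the start in bases. The SPRR genes and IVL hold an AP-1 core between -197 and -105, and the calmodulin-like genes hold neither motif.

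Levels differed between the lines, and no line was highest for all 9 genes. CPM compares libraries for a gene, and genes are not compared with each other here. In RT-112, IVL had a median of 9.71 CPM over 6 libraries (8.66 to 16.4). Its median was 22.7 CPM in HT-1376 (15.8 to 48.2) and 5.78 CPM over the 5 CAL-29 libraries (0.28 to 33.3). SPRR3 had medians of 0.90 CPM in RT-112 (0.30 to 1.09), 8.01 CPM in HT-1376 (2.04 to 12.3) and 1.25 CPM in CAL-29 (0 to 3.92). The HT-1376 libraries were thus above every RT-112 library for SPRR3, and for IVL they overlapped with RT-112. CALML3 had medians of 1.47 CPM in RT-112 (0.80 to 7.57), 18 CPM in HT-1376 (0.33 to 124) and 241 CPM in CAL-29 (194 to 591). Every CAL-29 library was above every library of the other lines for this gene. CALML5 had medians of 2.25 CPM in RT-112 (1.57 to 3.71), 2.62 CPM in HT-1376 (0.07 to 5.56) and 0.44 CPM in CAL-29 (0.22 to 0.73). TGM1 was low in all lines, with medians of 1.01 CPM in RT-112, 2 CPM in HT-1376 and 0.50 CPM in CAL-29.

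Of the 9 genes, 5 were higher in HT-1376 than in RT-112 with the variant as a term in the fit, where 61.9% of all genes tested were called. They were the 5 SPRR genes, with a log2FC of 5.36 ± 0.93 (SE) for SPRR2D (adjusted p = 0.000226), 3.77 ± 0.93 for SPRR2A (adjusted p = 0.00312), 3.11 ± 1.11 for SPRR1B (adjusted p = 0.0258), 2.57 ± 0.40 for SPRR3 (adjusted p = 8.3e-05) and 2.12 ± 0.71 for SPRR1A (adjusted p = 0.0183). IVL, TGM1, CALML3 and CALML5 did not pass between these lines. The fit averages over K and W variants, and the SPRR levels of HT-1376 differed between these, as described below. In the double control KK, HT-1376 and RT-112 were at 0.20 and 0.33 CPM for SPRR1A and 2.96 and 2.11 CPM for SPRR1B. SPRR2A was at 0 CPM in both, SPRR2D at 1.32 and 0.06 CPM and SPRR3 at 2.04 and 0.89 CPM. CAL-29 against HT-1376 gave 6 calls, with 61% of all genes called. CALML3 was higher in CAL-29, with a log2FC of 4.66 ± 0.90 (adjusted p = 0.000638), while SPRR2D (-3.59 ± 1.00), SPRR3 (-2.43 ± 0.43), IVL (-2.23 ± 0.67), TGM1 (-1.52 ± 0.55) and CALML5 (-1.25 ± 0.52) were lower. CALML5 passed the filter only through HT-1376 WK, on the high side of this comparison, so its call is no support. CAL-29 against RT-112 gave 2 calls, with 71.5% of all genes called. CALML3 was higher by 6.64 ± 0.90 (adjusted p = 2.11e-05) and CALML5 lower, at -1.68 ± 0.52 (adjusted p = 0.00958). The counts are near or below these shares and show nothing particular to the 9 genes. By edgeR 3 of the 5 SPRR genes passed between HT-1376 and RT-112, the adjusted p being 0.0565 for SPRR1A and 0.1 for SPRR1B, and the fitted values of SPRR2A and SPRR2D depend on the pseudocount, since RT-112 held at most 5 reads of either. Of all genes, 58.6% passed by edgeR between these lines. The median log2FC of all genes was 0.43, 0.47 and 0.84 in the 3 comparisons, and 0.09, 0.10 and 0.14 with trimmed mean of M-values (TMM) scaling. With that scaling CAL-29 against RT-112 gave 4 calls, IVL (-1.79) and TGM1 (-1.40) being lower in CAL-29 as well, and 69.3% of all genes were called. TGM1 passed the filter only through RT-112 WK and the library labelled CAL-29 KC, which is not in this fit. Its call is therefore no support.

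**Figure D2:**
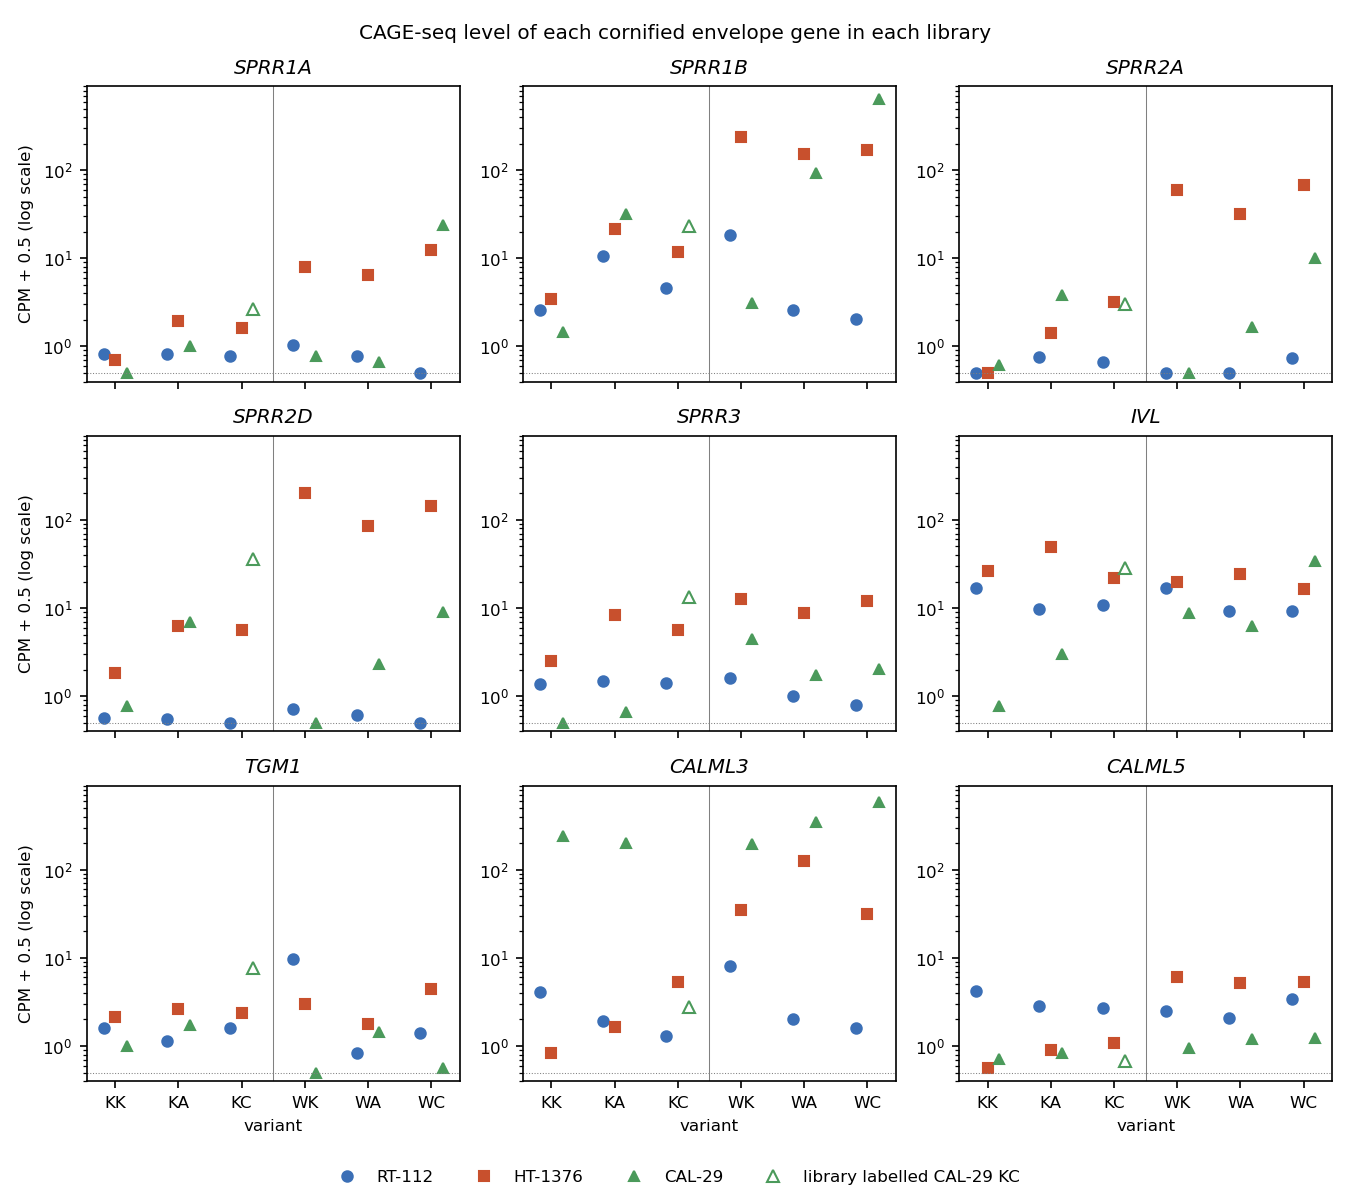
CPM plus 0.5 (y axis, log scale) of each gene in each library; the x axis gives the variant, with K variants left and W variants right of the vertical line, and each symbol is 1 library. In HT-1376 the W variants are above the K variants for 7 of the 9 genes, and in CAL-29 the WC library reaches 635 CPM for SPRR1B.

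Within HT-1376, genes of the cornified envelope were higher in the variants with WWOX. SPRR1A, SPRR1B, SPRR2A, SPRR2D, CALML3 and CALML5 rose, which is 6 of the 9 genes against 9.75% of all genes called in this line in either direction. CALML5 passed the filter only through HT-1376 WK, where it is high, so its call is no support. The 6 and the later counts include it. Without it the genes called here are SPRR1A, SPRR1B, SPRR2A, SPRR2D and CALML3. The scaffold gene IVL and the crosslinking gene TGM1 did not pass, nor did SPRR3. The comparison sets WK, WA and WC against KK, KA and KC, with the second transduction as a term. In bulk RNA, a larger share of cells that express a gene and more RNA per cell cannot be told apart.

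SPRR2A, a cross-bridging protein of the envelope, was at 0 CPM in KK, 0.91 in KA and 2.69 in KC, and at 59.0 in WK, 31.6 in WA and 67.9 in WC. Its mean was 52.8 ± 18.9 CPM in W and 1.20 ± 1.37 CPM in K variants (SD, n = 3 each), a ratio of 44. The lowest W library was far above the highest K library. On the log2(CPM + 0.5) scale, which understates the change of low genes, the log2FC was 5.27 ± 0.47 (adjusted p = 0.00119).

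SPRR2D, its neighbor and close relative, was at 1.32 CPM in KK, 5.84 in KA and 5.11 in KC, against 199 in WK, 84.7 in WA and 145 in WC. The groups did not overlap here either, and the log2FC was 5.07 ± 0.49 (adjusted p = 0.00149). The SPRR2 genes are near-identical in sequence, and how the authors' counting divided reads among them is not known, so the split between SPRR2A and SPRR2D is uncertain.

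SPRR1B, a precursor crosslinked by transglutaminases, was at 2.96 CPM in KK, 20.8 in KA and 11.3 in KC, and at 235 in WK, 151 in WA and 168 in WC. KK was the lowest of the 6 libraries, and both AP-2 variants without WWOX lay between it and the W variants. Its log2FC was 4.25 ± 0.85 (adjusted p = 0.0192). SPRR1A, its close relative, was at 0.20 CPM in KK, 1.42 in KA and 1.13 in KC, against 7.51 in WK, 5.94 in WA and 12.0 in WC. The groups again did not overlap, and the log2FC was 2.73 ± 0.38 (adjusted p = 0.00513).

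The calmodulin-like genes on chromosome 10 rose as well. CALML3 was at 0.33 CPM in KK, 1.13 in KA and 4.82 in KC, and at 34.4 in WK, 124 in WA and 31.2 in WC. WA was the highest library, and all W libraries were above all K libraries. The log2FC was 4.74 ± 0.58 (adjusted p = 0.00338). CALML5 was at 0.07 CPM (1 read) in KK, 0.40 in KA and 0.57 in KC, against 5.56 in WK, 4.67 in WA and 4.88 in WC. The W libraries lay close together, and the log2FC was 2.75 ± 0.31 (adjusted p = 0.00212).

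The other 3 genes did not pass in HT-1376. SPRR3, a proline-rich protein of esophagus and other wet epithelia, was at 2.04 CPM in KK, 7.83 in KA and 5.18 in KC, and at 12.3 in WK, 8.18 in WA and 11.6 in WC. The groups did not overlap, but KA and WA were close together, and the log2FC was 1.16 ± 0.47 (adjusted p = 0.147). IVL was at 25.8 CPM in KK, 48.2 in KA and 21.5 in KC, against 19.4 in WK, 23.8 in WA and 15.8 in WC. The groups overlapped, and the log2FC was -0.61 ± 0.39 (adjusted p = 0.340). TGM1, the membrane-bound transglutaminase of keratinocytes, was at 1.64 CPM in KK, 2.16 in KA and 1.84 in KC, and at 2.52 in WK, 1.28 in WA and 3.94 in WC. Its groups overlapped too, with a log2FC of 0.28 ± 0.55. In all, 7 of the 9 genes had every W library above every K library in HT-1376, against 12.8% of all genes tested. CALML5 is among the 7 and is no support, as said above. An exact two-sided p under 0.1 cannot come from 3 libraries against 3.

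The number of calls in HT-1376 depended on which libraries set the spread. With the HT-1376 libraries alone 2 genes were called, SPRR2A and CALML5, the other 4 having an adjusted p of 0.051 to 0.054, and with the library labelled CAL-29 KC kept in the fit 3 were called, SPRR2A, SPRR2D and CALML5. Without the AP-2α libraries 4 passed, SPRR1B and CALML3 having an adjusted p of 0.0608 and 0.0507, and without the AP-2γ libraries 5 passed, SPRR1B having 0.111. The share of all genes called moved as well, to 1.27% with the line alone, 1.08% with CAL-29 KC kept, 3.56% without the AP-2α and 3.13% without the AP-2γ libraries. The median log2FC of all genes was -0.13, and -0.02 with TMM scaling, which kept the same count of 6. Summed CPM of a fixed list of fibroblast markers was also apart in this line, at 36.6 to 59.6 in W and 5.33 to 12.6 in K variants. Of its 6 genes 4 were in the table, 3 passed the filter and 2 were called, COL1A1 and COL1A2, while LUM had at most 0.22 CPM in HT-1376, COL3A1 was lower in W, with a mean of 0.17 CPM against 1.43 CPM in K variants, and DCN and PDGFRB were not in the table. The part of this difference in the result was not tested, and the same holds for the next markers. Of the 4 leukocyte markers 1 was in the table, CD68, at 6.07 to 14.7 CPM in W and 1.70 to 2.38 CPM in K variants, and of the 4 endothelial markers 1, CDH5, at 0.19 to 0.71 CPM in W and 2.10 to 4.11 CPM in K variants. The other leukocyte and endothelial markers were not in the table.

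**Figure D3:**
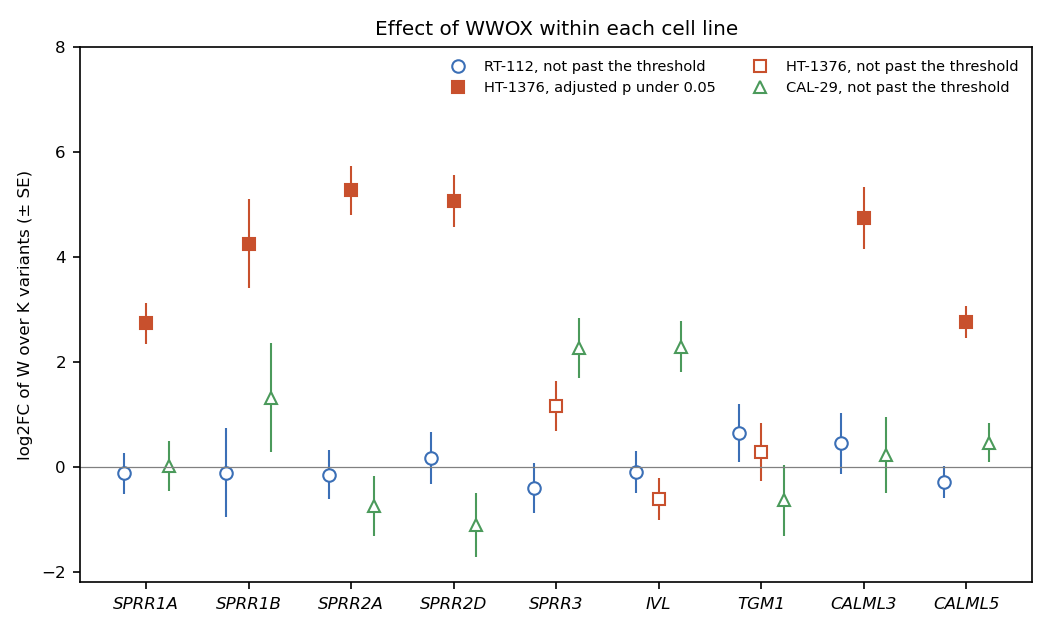
Log2FC of the W over the K variants (y axis, with SE from the limma fit) for each gene in each cell line; filled symbols passed an adjusted p of 0.05. In HT-1376 6 genes lie between 2.73 and 5.27 and passed, among them CALML5, which passed the filter only through HT-1376 WK. In RT-112 and CAL-29 0 genes passed.

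In RT-112 none of the 9 genes passed for WWOX, and 0 of 13022 genes did (0%; limma, 1021 genes at an unadjusted p under 0.05, 0 calls by edgeR). SPRR2A had 0 to 5 reads and SPRR2D 0 to 4 reads in any RT-112 library, at or near the 3-read limit, so that every fitted value that uses them rests on the pseudocount. SPRR1B was at 2.11 CPM in KK, 10.1 in KA and 4.06 in KC, and at 18.1 in WK, 2.12 in WA and 1.57 in WC. WK was the highest and WC the lowest library, so the groups overlapped fully. IVL was at 16.3 CPM in KK, 9.21 in KA and 10.2 in KC, against 16.4 in WK, 8.66 in WA and 8.80 in WC. The libraries without an AP-2 factor were the highest with and without WWOX, and the log2FC of WWOX was -0.09 ± 0.39. TGM1 was at 1.11 CPM in KK, 0.63 in KA and 1.12 in KC, and at 9.15 in WK, 0.34 in WA and 0.90 in WC. The WK library stood apart from the other 5. CALML3 was also highest in WK, at 7.57 CPM, after KK at 3.55 CPM, while the 4 libraries with an AP-2 factor were at 0.80 to 1.51 CPM. CALML5 ranged from 1.57 to 3.71 CPM, SPRR3 from 0.30 to 1.09 CPM and SPRR1A from 0 to 0.54 CPM. The W variants were above the K variants without overlap for 0 of the 9 genes, against 9.48% of all genes.

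In CAL-29 the WWOX effect compares WK and WA with KK and KA, since WC has no partner once KC is left out. None of the 9 genes passed, while 0.73% of all genes did (limma, 0 of the 9 by edgeR). At an unadjusted p under 0.05 there were 2 of the 9 and 1671 of all 13022 genes. IVL was at 0.28 CPM in KK and 2.49 in KA, and at 8.40 in WK, 5.78 in WA and 33.3 in WC. All W libraries were above both K libraries, with a log2FC of 2.29 ± 0.48 (adjusted p = 0.083). With the AP-2α libraries left out in all lines it was 3.51 (adjusted p = 0.0263), but that sets 1 WK library against 1 KK library, with the spread taken from the other lines. SPRR3 was at 0 CPM in KK and 0.17 in KA, against 3.92 in WK, 1.25 in WA and 1.52 in WC. Its log2FC was 2.26 ± 0.58 (adjusted p = 0.140). CALML5 was the other gene without overlap, at 0.22 and 0.33 CPM in KK and KA and 0.44 to 0.73 CPM in the W variants, all low levels. These 3 genes stood against 9% of all genes with W above K, and 2 libraries against 3 cannot go below an exact two-sided p of 0.2. With the library labelled CAL-29 KC kept, 1 of the 9 genes had W above K, against 5.27% of all genes. CALML3, at 241 CPM in KK, 201 in KA, 194 in WK, 344 in WA and 591 in WC, overlapped. SPRR2A was at 0.11 CPM in KK, 3.32 in KA, 0 in WK, 1.15 in WA and 9.45 in WC, and SPRR2D at 0.28, 6.47, 0, 1.85 and 8.60 CPM in the same order. For both genes the KA library was above WK and WA, which was not seen in HT-1376.

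The WWOX effect itself differed between lines for 5 genes in HT-1376 against RT-112, where 1.35% of all genes differed. CALML5 is among these and among the genes for CAL-29 against HT-1376 below, and is no support in either count. The difference of log2FC was 5.42 ± 0.66 for SPRR2A (adjusted p = 0.0184), 4.90 ± 0.70 for SPRR2D (adjusted p = 0.0227), 4.29 ± 0.83 for CALML3 (adjusted p = 0.0469), 3.04 ± 0.43 for CALML5 (adjusted p = 0.0227) and 2.86 ± 0.54 for SPRR1A (adjusted p = 0.0464). SPRR1B, at 4.36 ± 1.21, did not pass (adjusted p = 0.111). For SPRR2A and SPRR2D, with at most 5 reads in RT-112, the size depends on the pseudocount: with 0.05 CPM it was 7.35 for SPRR2A, which no longer passed (adjusted p = 0.0525), and 4.62 for SPRR2D, and with 2 CPM it was 4.16 and 4.54. CAL-29 differed from HT-1376 for 6 genes, with 4.65% of all genes called. The effect was smaller in CAL-29 by -6.18 ± 0.78 for SPRR2D, -6.02 ± 0.74 for SPRR2A, -4.51 ± 0.92 for CALML3, -2.71 ± 0.61 for SPRR1A and -2.29 ± 0.48 for CALML5, and larger by 2.90 ± 0.62 for IVL, with adjusted p of 0.0081 to 0.0416. In CAL-29, SPRR2A had 2 reads in KK and 0 in WK, and SPRR2D 5 and 0. SPRR1A had 0 to 9 reads in the CAL-29 libraries fitted other than WC. The sizes for these genes depend on the pseudocount here as well. CAL-29 and RT-112 did not differ for any of the 9, and 0.0768% of all genes were called (limma; 2 of the 9 and 1524 of 13022 genes at an unadjusted p under 0.05, 0 of the 9 by edgeR). With the library labelled CAL-29 KC kept, 0 of the 9 genes differed between HT-1376 and RT-112 and 1, SPRR2D, between CAL-29 and HT-1376. Of all genes 0% and 0.0538% did. By edgeR 1, CALML5, and 3, CALML3, SPRR2A and SPRR2D, passed, beside 0.637% and 3.42% of all genes. The edgeR call of CALML5 is no support, since it passed the filter only through HT-1376 WK. With a second transduction left out, HT-1376 against RT-112 kept 0 without the AP-2α or the AP-2γ libraries and 1, SPRR2A, without the libraries with a blank one. CAL-29 against HT-1376 kept 3 without the AP-2γ libraries, all with a smaller effect in CAL-29. Without the AP-2α libraries none of the smaller effects in CAL-29 passed. That fit, like the one without the blank libraries, sets 1 W library against 1 K library for WWOX in CAL-29.

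The AP-2 factors were compared within each line over the first transductions. In CAL-29, 4 SPRR genes rose with AP-2γ, where 2.45% of all genes were called. The KC library being left out, this effect rests on the 1 WC library, set against the level that the other 4 CAL-29 libraries give for WWOX without an AP-2 factor, with the spread taken from all lines. SPRR1B was at 0.95 CPM in KK, 31.2 in KA, 2.60 in WK, 92.1 in WA and 635 in WC. WC was the highest and both variants without an AP-2 factor were the lowest, and the log2FC of AP-2γ was 7.57 ± 1.38 (adjusted p = 0.0343). SPRR1A was at 0 CPM in KK, 0.50 in KA, 0.28 in WK, 0.16 in WA and 23.4 in WC. The WC library stood apart from the other 4, and the log2FC was 5.25 ± 0.62 (adjusted p = 0.0121). SPRR2A (4.55 ± 0.76, adjusted p = 0.0293) and SPRR2D (4.42 ± 0.80, adjusted p = 0.0342) passed as well. Both had 0 reads in WK, so that WC at 9.45 and 8.60 CPM was at least 57.0-fold and 51.9-fold higher, 3 reads in the WK library being taken as the limit. IVL was at 33.3 CPM in WC against 8.40 in WK and did not pass (log2FC 2.54 ± 0.64, adjusted p = 0.0775). TFAP2C was at 339 CPM in this WC library and at 70.3 to 93.1 CPM in the other 4. With the CAL-29 libraries alone 0 genes passed, and without the AP-2α libraries 1 did, SPRR1A. The median log2FC of all genes in this comparison was -0.49, and -0.03 with TMM scaling, under which 4 of the 9 genes were called too.

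AP-2γ gave 0 calls among the 9 in HT-1376 and RT-112, and 0.0384% of all genes passed in each (limma; 1 of the 9 at an unadjusted p under 0.05 in each line, 0 by edgeR). Of all 13022 genes, 676 in HT-1376 and 218 in RT-112 had an unadjusted p under 0.05. AP-2α gave 0 calls in all 3 lines. Of all genes, 0% passed for AP-2α in CAL-29, 0% in HT-1376 and 0.00768% in RT-112, with 0 calls among the 9 by edgeR. An unadjusted p under 0.05 was held by 788, 385 and 223 of 13022 genes in these lines. Among the 9 genes it was held by 3, 0 and 1. In CAL-29 these 3 were SPRR1B, with a log2FC of 4.68 ± 1.04 (adjusted p = 0.305), SPRR2D, with 2.70 ± 0.61 (adjusted p = 0.305), and SPRR2A, with 2.18 ± 0.57 (adjusted p = 0.455). For each, KA was above KK and WA above WK. The difference of an AP-2 effect between lines was not tested.

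The study compared each variant with KK over the cell lines as replicates, with voom on counts. The same comparisons were fitted here by limma on log2(CPM + 0.5), without a term for the line. In that fit none of the 9 genes passed in any of the 5 comparisons, nor did any other gene (0% in each). The 5 comparisons share the KK libraries. At an unadjusted p under 0.05 there were 2 of the 9 in WC/KK, SPRR1B (log2FC 4.68 ± 1.93) and SPRR1A (3.00 ± 1.31), and 0 in the others. In WC/KK 84 of all 13022 genes were under that limit. The log2FC of the 9 genes had a median of 1.89 for WK/KK, beside -0.08 over all genes. For WA/KK the median was 1.17 beside 0.01, and for WC/KK 1.73 beside -0.25. Without WWOX it was 0.75 beside -0.04 for KA/KK and 1.43 beside -0.09 for KC/KK. The KC/KK median rests in part on the library labelled CAL-29 KC, and without it was 0.85, or 0.57 with the line as a block as well. With 1 line left out at a time the WK/KK median was 0.48 without HT-1376, where 6 of the 9 values were above 0, 1.92 without CAL-29 and 2.54 without RT-112. The WA/KK median was 0.67 without HT-1376 and 1.97 without RT-112, and that of WC/KK was 3.27 without RT-112. That of KA/KK was 0.49 without HT-1376 and 1.23 without RT-112, and that of KC/KK 0.56 without CAL-29 and 2.47 without RT-112. With limma-voom on recovered reads, nearer to the method of the study, the median of the 9 was 2.34 for WK/KK and 2.31 for KA/KK. It was 2.84 for KC/KK, 2.36 for WA/KK and 3.49 for WC/KK. The gap between WK/KK and KA/KK thus depended on the method. In the fit without voom, SPRR1B had the largest fitted value of the 9 in each comparison except KC/KK, where SPRR2D had 2.33 and SPRR1B 2.19. With the cell line as a block, 0 of the 9 passed by limma in any comparison and 0 by edgeR, and DESeq2 called 1, SPRR1B in WC/KK (log2FC 6.03 ± 1.42, adjusted p = 0.0167). That DESeq2 comparison called 35 of all 13022 genes (0.269%).

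The library labelled CAL-29 KC, which is part of that fit, differed from the other CAL-29 libraries for several of these genes. CALML3 was at 2.27 CPM there, against 194 to 591 CPM in the others. SPRR2D was at 35.2 CPM, SPRR3 at 12.7 CPM and TGM1 at 7.27 CPM, each above the highest of the other 5 libraries (8.60, 3.92 and 1.22 CPM). SPRR1A (2.15 CPM), SPRR1B (22.8 CPM), SPRR2A (2.56 CPM) and IVL (28.2 CPM) lay within their range. CALML5 was at 0.18 CPM, about 3 reads.

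After the mean of each line was subtracted, the genes were correlated over the 17 libraries, which share lines and the W and K design. SPRR2A and SPRR2D went together (r = 0.97), as did CALML3 and CALML5 (0.87), SPRR1A and SPRR1B (0.83), and SPRR2A with CALML5 (0.88). These are not separate pairs, since SPRR1B and SPRR2D had 0.83, SPRR1A and SPRR2A 0.82, and CALML3 and SPRR2A 0.80. SPRR1A and CALML5 were lower, at 0.64. IVL correlated with SPRR1A (0.50), SPRR1B (0.48) and SPRR3 (0.54) but little with SPRR2A (0.08) or CALML5 (0.01). TGM1 was between -0.14 and 0.26 with every other member. Outside the 9 genes, the most alike gene was SPRR2E for SPRR2A (0.98), KRT6A for SPRR1B (0.96), TUBA4A for SPRR1A (0.96), C16orf74 for CALML5 (0.96), S100A2 for CALML3 (0.93), GRHL3 for SPRR3 (0.93), CDH24 for IVL (0.92) and AXL for TGM1 (0.81). SPRR2D was most like TM4SF19 and TM4SF19-DYNLT2B (0.97 each), a gene and its readthrough transcript with the same values, followed by SPRR2E (0.96). KRT6A is a keratin of hyperproliferative and wounded epithelium, and GRHL3 is a transcription factor of barrier formation. The next genes were SPINK7 and RANGAP1 for SPRR1A, GJB2 and MMP9 for SPRR1B, LIF and CCDC9B for SPRR2A, CAPNS2 and MPZL2 for SPRR3, PIMREG and ESPL1 for IVL, MCTP1 and LASTR for CALML3, LINC00460 and S100A2 for CALML5, and CADM4 and VAV2 for TGM1, with r of 0.76 to 0.95.

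Other genes of squamous differentiation were read from fixed lists. Of all 13022 genes, 612 were higher and 657 lower with WWOX in HT-1376 (9.75% called in either direction), and the count of each list is to be read against that share. Nothing particular to the list is read from 5 of 23 regulators, 1 of 10 urothelial markers or 3 of 21 genes of the chromosome 1 stretch. Of 26 further SPRR and late cornified envelope genes 9 were in the table and 2 passed the filter. SPRR2E was higher with WWOX in HT-1376, at a mean of 25.4 CPM in W and 1.15 in K variants (log2FC 4.15, adjusted p = 0.0019), and SPRR4 was at 0.31 and 0.06 CPM. Loricrin and the fused S100 proteins such as filaggrin, 8 genes, were not in the table. Of 15 genes for the scaffold, crosslinking and protease inhibitors that passed the filter, 6 were higher and 0 lower in HT-1376, with a list median of 1.37 beside -0.13 for all genes. SLPI, a secreted inhibitor of leukocyte protease, rose from 123 to 1094 CPM (log2FC 3.15, adjusted p = 0.0095), and PI3, the transglutaminase substrate elafin, from 5.41 to 64.6 CPM (4.05, adjusted p = 0.0444). DMKN (2.76) and EMP1 (1.66) rose as well.

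Of 15 genes of the desmosome and of desquamation, 6 were higher and 1 was lower in HT-1376. The kallikreins KLK8 (2.32), KLK5 (3.15) and KLK10 (2.36), serine proteases of shedding skin, rose, and PRSS8, prostasin, fell by 1.01 on the log2 scale. Of 5 genes for barrier lipids 0 passed, and the log2FC was -0.39 for SMPD1, 0.02 for CERS3 and -0.14 for ELOVL4. Of 23 regulators of squamous differentiation 4 were higher and 1 was lower. PITX1 rose from 5.30 to 38.3 CPM (3.24, adjusted p = 0.0049) and OVOL1, a zinc finger factor of late keratinocytes, from 6.45 to 24.3 CPM (2.17, adjusted p = 0.0304), while GRHL2 fell by 1.21 on the log2 scale. KLF5 was called in CAL-29 only among the lines (1.64, adjusted p = 0.0258), which was not tested as a difference.

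Among 12 basal and squamous markers 4 were higher with WWOX in HT-1376 and 0 lower. KRT6A was at a mean of 1.10 CPM in K and 47.9 CPM in W variants (5.05, adjusted p = 0.0042), KRT17 at 10.2 and 40.6 CPM (2.24) and KRT16 at 9.23 and 27.6 CPM (1.65). The summed level of the 12 was 930 to 1255 CPM in W and 676 to 896 CPM in K variants. KRT13 was called in CAL-29 (2.85, adjusted p = 0.0135). Of 10 urothelial markers 0 were higher and GATA3 was lower in HT-1376, at 176 CPM in K and 81.4 CPM in W variants (-1.07, adjusted p = 0.0185). The summed urothelial markers were at 369 to 503 CPM in W and 538 to 1234 CPM in K variants of HT-1376. Of 6 epithelial markers 1 was higher, and their sum was 9361 to 10601 CPM in W and 12604 to 14411 CPM in K variants. Each of these sums is weighted to its gene with the highest CPM in HT-1376, and that gene was not called there. In RT-112, 0 genes of these lists passed.

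Not every gene of the same stretch of chromosome 1 moved with the SPRR genes. Of 32 other genes in the table between S100A10 and S100A13, 21 passed the filter, and 2 were higher and 1 was lower with WWOX in HT-1376. S100A2 rose from 134 to 4077 CPM (5.49, adjusted p = 0.0019), and S100A4 fell by 2.11 on the log2 scale, from 3468 to 950.1 CPM. SPRR2E, described above, was the other gene that rose. S100A14 was called in CAL-29 (1.92, adjusted p = 0.0340). The list median was 0.38.

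**Figure D4:**
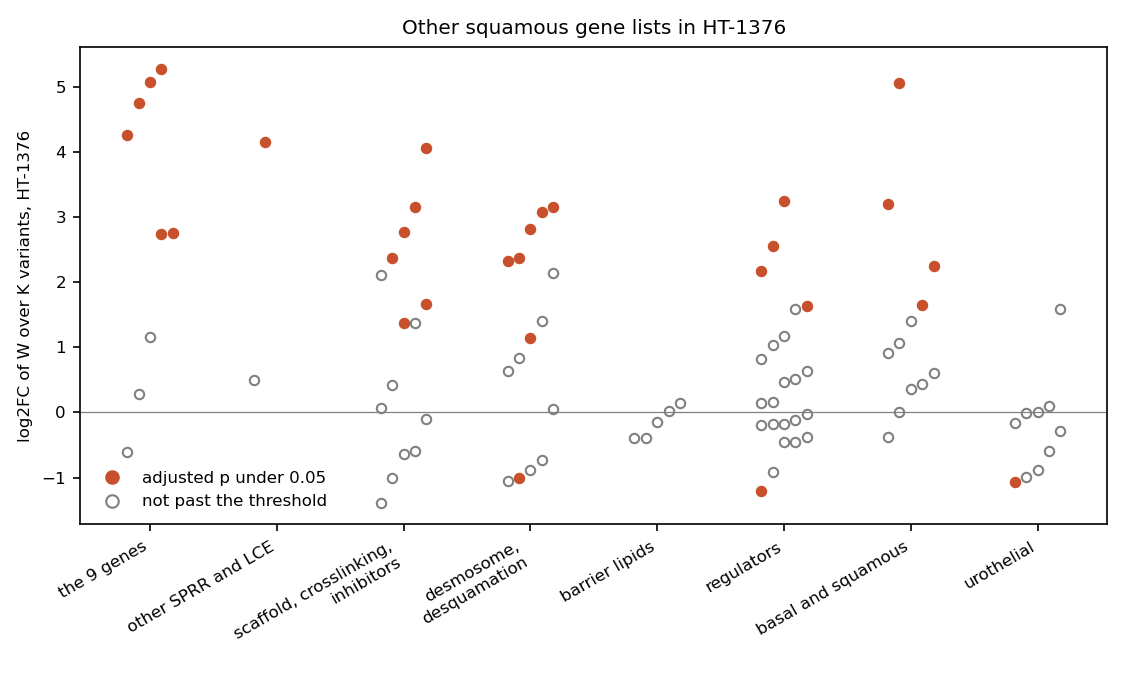
Log2FC of the W over the K variants in HT-1376 (y axis) for the 9 genes and for fixed lists of other genes (x axis), each point being 1 gene past the filter and filled points having an adjusted p under 0.05. The 9 genes reach 5.27 and KRT6A 5.05, and the barrier lipid genes stay near 0.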

How the data were processed

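CAGE-seq libraries of 6 variants in 3 cell lines were grouped by their labels. The authors mapped 75 nt reads to hg38, in part with HISAT2 2.0.5 per the labels, and deposited CPM per gene. The annotation behind the genes is not given in the sources used here. Reads were recovered from the deposited CPM, since 99.97% to 99.99% of the values were whole multiples of 1 read after rounding. Identifiers were matched to GENCODE 44 (16553 with a symbol, 22 without). The 13022 genes that reached 5 CPM in 1 library or more were fitted as log2(CPM + 0.5) in limma 3.58.1 (R 4.3.3), the empirical Bayes variance following the mean, and p-values were adjusted over all of them by Benjamini-Hochberg, with a threshold of 0.05. Comparisons with KK used all 18 libraries without a block. Effects of WWOX and AP-2 used terms within each line, and lines were compared with the variant as a term, both without the library labelled CAL-29 KC.

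The same cell line pairs the variants by design, and deviations from the variant mean correlated within CAL-29 at 0.036 to 0.881, within HT-1376 at 0.588 to 0.896 and within RT-112 at 0.742 to 0.915. Fits by limma and edgeR were tested on simulated data, for genes with many reads and, in comparisons with KK, with the line as a block. The reported fit without a block and genes with few reads were not covered by that test. edgeR 4.0.16, DESeq2 1.42.0, limma-voom, TMM scaling, pseudocounts of 0.05 and 2 CPM, no filter and libraries left out were alternatives. All 9 genes are named. Up to 4 genes per list were named, by number of WWOX calls and then mean CPM, with the 3 genes most correlated with each of the 9. COL1A1 and COL1A2 fall under this rule, as does CD68. A gene that this rule names is not reported here. The 9 genes and the lists were chosen with earlier results of these data known. The authors' own comparisons and measurements other than CAGE-seq were not used here. Plots were drawn with matplotlib 3.10.9.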

Additional observations from a re-analysis of the deposited data

Results flagged for a closer look

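Of 27 sets of libraries (9 genes in 3 lines), 2 held a library whose distance to the next one took up more of the range than Dixon's 95% limit allows, and chance alone gives about 1 in 20. TGM1 was at 9.15 CPM in RT-112 WK, and SPRR1A was at 23.4 CPM in CAL-29 WC.

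The effect of WWOX differed between HT-1376 and RT-112, by a test of the difference itself, by 5.42 for SPRR2A, 4.90 for SPRR2D, 4.29 for CALML3, 3.04 for CALML5 and 2.86 for SPRR1A on the log2 scale. Between CAL-29 and HT-1376 it differed by -6.18 for SPRR2D, -6.02 for SPRR2A, -4.51 for CALML3, -2.71 for SPRR1A, -2.29 for CALML5 and 2.90 for IVL. Culture medium and line cannot be told apart between RT-112 and HT-1376, and each variant had 1 library in each line.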

How the results depend on the processing

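Over the alternatives, 37 fitted values of the 9 genes were computed 312 times. Of these, 238 kept their direction and their side of the threshold, 73 kept the direction but no longer passed, and 1 turned, TGM1 for WWOX in HT-1376 (-0.041 to 0.71 with 1 second transduction left out, the lower value without the AP-2γ libraries). The count for WWOX in HT-1376 was 6, and it was 3 with the library labelled CAL-29 KC kept, 2 with the libraries of the line alone (an alternative chosen after seeing the data) and 4 to 6 with 1 second transduction left out. For WWOX in CAL-29 the count was 0, and 0 to 1 with 1 left out. For HT-1376 minus RT-112 it was 5, and it was 1 by edgeR, 2 with a pseudocount of 0.05 CPM, 0 with CAL-29 KC kept and 0 to 1 with 1 left out. For CAL-29 minus HT-1376 it was 6, and it was 3 by edgeR, 3 with a pseudocount of 0.05 CPM, 1 with CAL-29 KC kept and 3 without the AP-2γ libraries. Without the AP-2α libraries none of the smaller effects in CAL-29 passed. For AP-2γ in CAL-29 it was 4, and it was 0 with the libraries of the line alone and 1 without the AP-2α libraries. HT-1376 against RT-112 gave 3 calls by edgeR instead of 5 (58.6% of all genes), and CAL-29 against RT-112 gave 4 with TMM scaling instead of 2 (69.3% of all genes). W above K in CAL-29 held for 1 of the 9 genes with CAL-29 KC kept instead of 3, against 5.27% of all genes. The causes were not tested, except that alternatives with fewer libraries have fewer to set the spread.

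With the cell line as a replicate block, the count in the 5 comparisons with KK was 0 by limma, also without CAL-29 KC (added after seeing the data), and 0 by edgeR, and DESeq2 gave 1, in WC/KK. DESeq2 called 0.269% of all genes in WC/KK. Over all genes the blocked fits called 0 by limma, 0 to 5 by edgeR and 1 to 123 by DESeq2. Without a replicate block for the variant the comparisons of lines changed 1 call, CALML5 in CAL-29 against HT-1376 (-1.14, adjusted p = 0.069).

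Over all genes, calls for WWOX in HT-1376 ranged from 141 to 1594 (1269 as reported), in CAL-29 from 0 to 234 (95) and in RT-112 from 0 to 1 (0), for HT-1376 minus RT-112 from 0 to 291 (176), for CAL-29 minus HT-1376 from 7 to 2372 (606), for CAL-29 minus RT-112 from 0 to 58 (10), for AP-2γ in CAL-29 from 0 to 501 (319), in HT-1376 from 0 to 11 (5) and in RT-112 from 0 to 9 (5), and for AP-2α in CAL-29 from 0 to 15 (0) and in RT-112 from 0 to 5 (1). With TMM scaling, 93 genes were higher and 55 lower for AP-2γ in CAL-29, instead of 75 and 244. SPRR2A had at most 5 reads and SPRR2D at most 4 in RT-112, and both had 0 reads in CAL-29 WK. The size of fitted values that use these libraries depends on the pseudocount.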
